A study of Mus musculus with 6 samples.

Results

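A set of 10 genes of the cell's defence against oxidants, chosen by name, was followed in hematopoietic stem cells (HSCs) of the mouse fetal liver with and without Dpy30: Nfe2l2, Nqo1, Hmox1, Gclc, Gclm, Txnrd1, Srxn1, Sod1, Sod2 and Cat. All 10 were found among the 38926 gene symbols counted in the series, and all 10 passed the filter on low counts that left 13646 genes for testing. The series sequenced poly(A) RNA of HSCs sorted by surface markers from E14.5 embryos, with 3 control samples of genotype Vav-Cre; Dpy30F/+ and 3 knockout samples of genotype Vav-Cre; Dpy30F/-, so that each of 3 litters gave a sample of both genotypes. In Vav-Cre animals the Vav promoter drives Cre recombinase across the blood lineages. The controls carry this transgene as well, with a floxed and an intact Dpy30 allele, and so can lose 1 copy of the gene. Whether a sample came from 1 embryo or from several is not given in the sources used here, and replicate numbers are the litter numbers.

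NRF2, the protein made from Nfe2l2, is a transcription factor that KEAP1 holds back and marks for degradation in unstressed cells. Oxidants and electrophiles modify KEAP1, NRF2 then accumulates, pairs with a small MAF protein and binds antioxidant response elements, and its activity is therefore set largely at the level of protein and not of Nfe2l2 RNA. Its target genes make glutathione, reduce thioredoxin and oxidised peroxiredoxins, reduce quinones and break down heme. BACH1 competes for the same elements and represses several of them, Hmox1 above all. Superoxide dismutases and catalase, which act on superoxide and hydrogen peroxide directly, are governed by other factors as well, among them the FOXO proteins, and control of reactive oxygen species is known to matter for HSC maintenance. The Dpy30 protein is shared by all SET1/MLL complexes, enzymes that place the histone H3K4 methyl mark found at active promoters.

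NRF2 acts through the antioxidant response element, and the core of this element was searched for in the 250 bases before each gene's start in RefSeq promoters (GRCm38.p6), on both strands. Promoters of 8 members were matched; those of Hmox1 and Gclc were not. The core TGACNNNGC was present before 4 of the 8, against 11.5% of all 27025 genes with a promoter in the table. The variant TGAGNNNGC, a choice made after the sequences were seen, was present before Srxn1 alone of the 8, against 16.3% of all genes. The sequences below show each match in capitals, written along the gene's strand from 5′ to 3′, so that a match on the opposite strand reads as its reverse complement. Srxn1 has matches 45 and 158 bases before its start, the nearer of which is shown. The Sod1 match lies 56 bases before its start, that of Txnrd1 lies 92 bases before 1 of its 3 listed starts, that of Gclm 134 and that of Nfe2l2 240 bases before the start.
Srxn1 (chr2:152105458-152105508, plus strand): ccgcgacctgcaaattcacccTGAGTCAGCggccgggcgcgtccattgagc
Gclm (chr3:122245402-122245452, plus strand): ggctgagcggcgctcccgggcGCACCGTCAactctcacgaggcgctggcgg
Txnrd1 (chr10:82859093-82859143, plus strand): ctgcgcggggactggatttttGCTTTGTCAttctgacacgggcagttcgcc
Sod1 (chr16:90220685-90220735, plus strand): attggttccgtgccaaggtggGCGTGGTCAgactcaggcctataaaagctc
Nfe2l2 (chr2:75704863-75704913, minus strand): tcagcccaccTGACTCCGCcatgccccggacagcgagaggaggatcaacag
A match describes these letters only. The core was in the windows of both Gclm, whose mean level was higher in the knockouts, and Sod1, whose mean was not, and neither motif was in the windows of Nqo1, Sod2 and Cat.

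Counts assigned to genes numbered 31897737 to 43394700 per sample, of which 49.2% to 67.7% came from mitochondrially encoded genes. Levels are given in CPM, counts scaled to a common library total, after correction by trimmed mean of M values (TMM), a factor that corrects each library for its composition. It ranged from 0.747 in control 1 to 1.25 in knockout 1. Dpy30 stood at 24.6, 24.2 and 31.6 CPM in controls 1 to 3 and at 7.93, 5.95 and 13.7 CPM in knockouts 1 to 3, so the libraries followed their labels, with transcript left in each knockout. The HSC genes Kit and Hlf were present in all 6 samples, but Hlf was at 27.2 CPM in knockout 3 against 146 to 230 CPM in the other 5. Genes of liver endothelium were also abundant: Lyve1, Stab2 and Cdh5 stood at 188 to 727 CPM in 5 samples and at 13.5 to 28.9 CPM in knockout 2. Knockouts 2 and 3 thus stood apart from the rest in these genes, and values without one of them are given beside the results they move most.

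No member passed the adjusted threshold in edgeR, and DESeq2 called Hmox1 alone. Of the 10 log2 fold changes, knockout over control, 7 were positive, against 50.8% over all genes tested. These were the NRF2 targets Hmox1, Nqo1, Gclm, Txnrd1, Gclc and Srxn1 and Cat, while Nfe2l2, Sod1 and Sod2 were slightly below 0. In edgeR's quasi-likelihood test, which compares the genotypes gene by gene with p-values adjusted over all genes by the Benjamini-Hochberg method, 0 of 10 members had an adjusted p under 0.05, as had 0% of all 13646 genes. At an unadjusted p under 0.05 there were 2 of 10, Hmox1 and Gclm, both higher in the knockouts, against 6.51% of all genes, with 4.26% higher and 2.24% lower. DESeq2, another count test, called 1 of 10, Hmox1, against 1.08% of the genes it tested, and limma-voom called 0, against 0% of all genes, with 2 members, Hmox1 and Nqo1, at an unadjusted p under 0.05, against 7.39%. The members' median log2 fold change was 0.67, against 0.01 over all genes tested. Without knockout 3 the median of the members was 0.23, against -0.02 over all genes then tested.

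**Figure D1:**
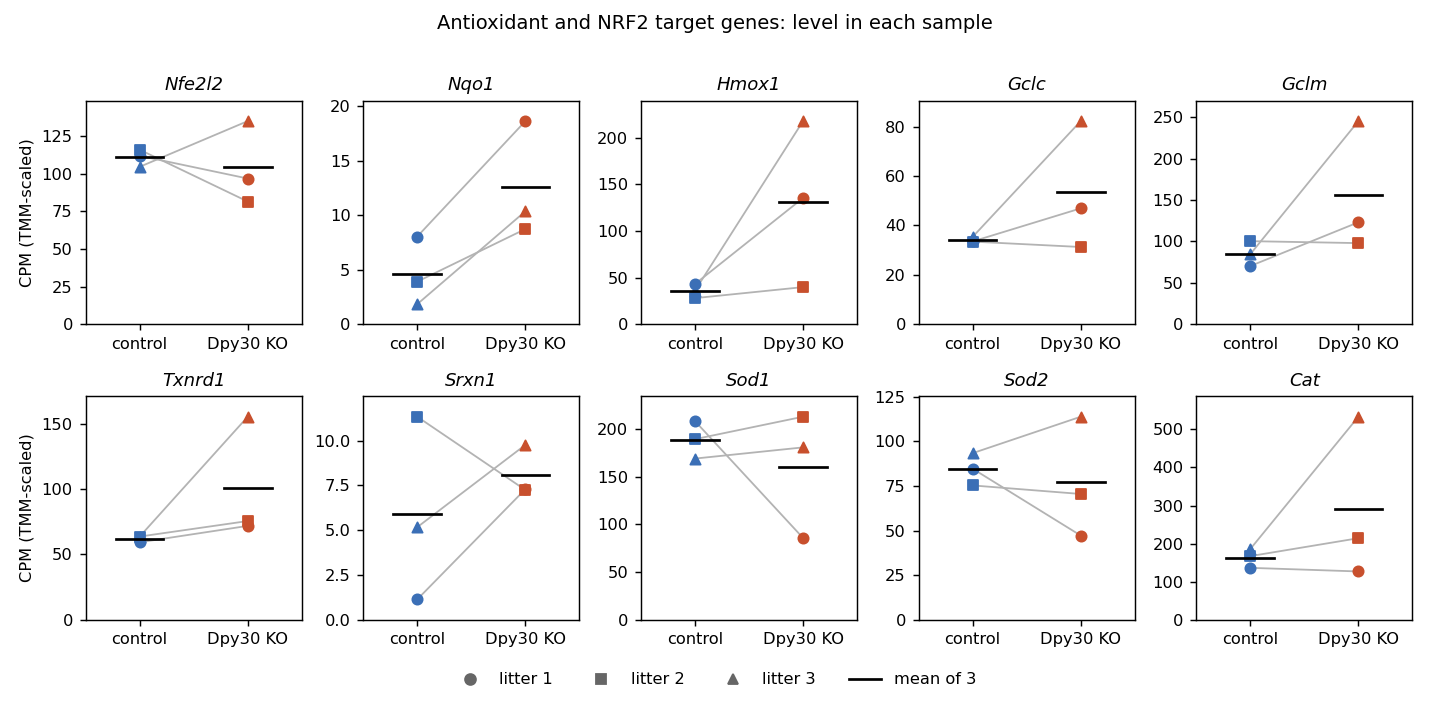
Each panel plots the level of 1 gene in CPM (TMM-scaled, linear axis from 0) in the 3 control and 3 knockout samples, with a symbol for each litter, a grey line joining the samples of a litter and a black bar for the mean of 3. Control points lie close together for Gclc and Txnrd1, and the triangle of knockout 3 is the highest point for Nfe2l2, Hmox1, Gclc, Gclm, Txnrd1, Sod2 and Cat.

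Nfe2l2 (chromosome 2, 75675513 to 75704641, minus strand, GRCm38), which encodes NRF2 itself, was at 112, 116 and 105 CPM in controls 1 to 3 and at 96.9, 81.6 and 135 CPM in knockouts 1 to 3. The knockouts lay on both sides of the controls, which were close together. The control mean was 111 ± 5.81 CPM and the knockout mean 104.5 ± 27.6 CPM (SD, n = 3 each), with a log2 fold change of -0.09 (SE 0.248; edgeR adjusted p = 0.975). The sign of so small a difference depended on the scaling: it was 0.11 when libraries were scaled by their size only, a setting under which the median of all genes also moved up, to 0.23.

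Hmox1 and Nqo1, of heme and quinone breakdown, had the highest log2 fold changes of the 10 with all samples; without knockout 1 Cat (1.19) exceeded Nqo1 (1.05), and without control 2 Srxn1 (1.36) was level with Nqo1 (1.35). Hmox1 (chromosome 8, 75093621 to 75100589, plus strand) encodes heme oxygenase 1, which opens heme to biliverdin, iron and carbon monoxide. It was at 43.0, 27.9 and 35.9 CPM in controls 1 to 3 and at 135, 39.8 and 218 CPM in knockouts 1 to 3. Knockouts 1 and 3 were far above every control, while knockout 2 lay within the control range, just under control 1. The means were 35.6 ± 7.54 and 131 ± 89.1 CPM (SD, n = 3 each), and the log2 fold change was 1.88 (SE 0.548; edgeR unadjusted p = 0.00889, adjusted p = 0.672). DESeq2 gave 1.90 with an adjusted p of 0.0356, and of the 6 DESeq2 fits that each left out 1 sample only the fit without knockout 2 stayed past the threshold (adjusted p = 1.77e-07 there and 0.0706 to 0.319 in the other 5).

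Hmox1 is a gene that tissue macrophages and liver endothelium are known to express, so marker lists of both were read beside it. In the list of 17 macrophage genes, 16 were tested, 14 had a positive log2 fold change, against 50.8% of all genes, and 5 were above every control in every knockout, against 6.39%. None was below every control, against 7.74%. At an unadjusted edgeR p under 0.05, 6 of the 16 were higher, against 4.26%, and DESeq2 called 3, Csf1r, C1qb and Lyz2, against 1.08%. Without knockout 2 the count at an unadjusted p under 0.05 was 10 of 16, against 5.89%, and without knockout 3 it was 4 of 17, against 4.11%. The list's summed level was 435 to 657 CPM in controls and 994, 401 and 1952 CPM in knockouts 1 to 3, so knockouts 1 and 3 were high in both Hmox1 and this sum. Cd163 was at 0 in controls 1 and 2 and in knockout 3. Mrc1 was the most abundant gene of the list over all samples, with 26.4 CPM in knockout 2 against 180 to 366 CPM in the other 5. Without Mrc1 the list summed to 256, 299 and 261 CPM in controls 1 to 3 and to 684, 374 and 1586 CPM in knockouts 1 to 3, every knockout above every control. Mrc1 was left out after its values were seen, and this separation rests on that choice. With Mrc1 the sum of knockout 2 was below every control. Csf1r, the receptor that macrophages depend on and a gene singled out after its values were seen, was instead at 8.91 to 39.1 CPM in controls and 75.7 to 141 CPM in knockouts, with knockout 2 at 92.4 CPM. The endothelial and stromal list summed to 1087 to 1731 CPM in controls and to 1567, 156 and 1628 CPM in knockouts 1 to 3. Of its 9 tested genes 2 had a positive log2 fold change, against 50.8% of all genes. The number that separated the genotypes was 0 of 9, against 14.1%. In litter 2 Hmox1 was higher in the knockout than in its control by 0.51 on the log2 scale. There the macrophage sum differed by -0.71 with Mrc1 and by 0.33 without it, while the endothelial sum differed by -3.47. The part of these cells in the Hmox1 difference was not tested, and in bulk RNA fewer cells of a type and less RNA per cell cannot be told apart.

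Nqo1 (chromosome 8, 107388225 to 107403206, minus strand), the quinone reductase often used as a readout of NRF2, was expressed at a low level. It was at 8.05, 3.90 and 1.84 CPM in controls 1 to 3 and at 18.6, 8.74 and 10.4 CPM in knockouts 1 to 3. Every knockout was above every control, narrowly for knockout 2 against control 1, and each knockout was at least 1.15 log2 units above the control of its own litter. The means were 4.60 ± 3.16 and 12.6 ± 5.31 CPM (SD, n = 3 each), with a log2 fold change of 1.45 (SE 0.739; edgeR unadjusted p = 0.0845, adjusted p = 0.795). Nqo1 differed from Hmox1 in which knockout was highest: for Nqo1 it was knockout 1, for Hmox1 knockout 3.

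Gclc and Gclm encode the catalytic and the modifier subunit of glutamate-cysteine ligase, the rate-limiting enzyme of glutathione synthesis. Gclc (chromosome 9, 77754535 to 77794485, plus strand) was at 33.5, 33.4 and 35.3 CPM in controls 1 to 3 and at 46.9, 31.3 and 82.2 CPM in knockouts 1 to 3. The controls differed by little, 2 knockouts lay above them and knockout 2 lay below. The difference was 0.65 on the log2 scale (SE 0.382, edgeR, adjusted p = 0.824).

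Gclm (chromosome 3, 122245557 to 122270732, plus strand) was at 70.3, 100.4 and 84.5 CPM in controls 1 to 3 and at 123, 98.0 and 245 CPM in knockouts 1 to 3. Knockout 2 again lay within the control range and the other 2 knockouts were above it. The log2 fold change was 0.87 (SE 0.362; edgeR unadjusted p = 0.0426, adjusted p = 0.759). The subunits kept a similar proportion in all samples, with 2.10, 3.00 and 2.39 counts of Gclm per count of Gclc in the controls, in order, and 2.63, 3.14 and 2.99 in the knockouts. Without knockout 3 the log2 fold changes were 0.21 for Gclc and 0.39 for Gclm.

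Txnrd1 (chromosome 10, 82833951 to 82897712, plus strand) encodes the cytosolic thioredoxin reductase, which uses NADPH to keep thioredoxin reduced. It was at 59.3, 63.7 and 63.6 CPM in controls 1 to 3 and at 71.9, 75.6 and 155 CPM in knockouts 1 to 3. Every knockout was above every control, knockouts 1 and 2 by a small step and knockout 3 by a large one. The means were 62.2 ± 2.51 and 101 ± 47.2 CPM (SD, n = 3 each), with a log2 fold change of 0.70 (SE 0.334; edgeR unadjusted p = 0.0693, adjusted p = 0.775). Without knockout 3 it was 0.26.

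Srxn1 (chromosome 2, 152105516 to 152111376, plus strand) encodes sulfiredoxin, which restores overoxidised peroxiredoxins. It had 33, 424 and 228 counts in controls 1 to 3, or 1.14, 11.3 and 5.17 CPM, and 7.30, 7.25 and 9.77 CPM in knockouts 1 to 3. The knockouts were close together inside the wide control range. The lowest count of any member, the 33 in control 1, has an exact 95% Poisson interval of 22.7 to 46.3, which covers counting error only, so counting error does not span the gap to the other controls. On the log2 scale the difference was 0.46 (SE 0.866; edgeR, adjusted p = 0.962), and it became -0.025 without control 1.

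Sod1, Sod2 and Cat act on superoxide and peroxide. Sod1 (chromosome 16, 90220754 to 90226329, plus strand), the cytosolic copper-zinc superoxide dismutase, was at 208, 189 and 169 CPM in controls 1 to 3 and at 85.8, 213 and 181 CPM in knockouts 1 to 3. Knockout 1 was low, knockout 2 was just above the controls and knockout 3 was within their range (log2 fold change -0.24, SE 0.331; edgeR adjusted p = 0.936). Without knockout 1 the value was 0.06.

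Sod2 (chromosome 17, 13006846 to 13040063, plus strand), the mitochondrial manganese enzyme, was at 84.7, 75.3 and 93.4 CPM in controls 1 to 3 and at 47.2, 70.5 and 114 CPM in knockouts 1 to 3. Knockout 1 was again the lowest, and knockout 3 exceeded every control (log2 fold change -0.13, SE 0.335; edgeR adjusted p = 0.970). The sign of the difference changed without knockout 1, to 0.12, and under scaling by library size only, to 0.04.

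Cat (chromosome 2, 103453849 to 103485160, minus strand) encodes catalase, which splits hydrogen peroxide and is abundant in red cell precursors. It was at 136, 167 and 186 CPM in controls 1 to 3 and at 127, 214 and 533 CPM in knockouts 1 to 3. Knockout 1 was below all controls, knockout 2 a little above them and knockout 3 far above. The log2 fold change was 0.84 (SE 0.476; edgeR unadjusted p = 0.116, adjusted p = 0.814) with knockout 3 and 0.08 without it. Beside this, the list of erythroid genes, of which 15 were tested, summed to 1526 to 2900 CPM in controls and to 1303, 1369 and 3393 CPM in knockouts 1 to 3. Of its 15 genes 9 had a negative log2 fold change and 6 a positive one, which 50.8% of all genes had. At an unadjusted edgeR p under 0.05, 2 were lower, against 2.24% of all genes. These were Tfrc, the transferrin receptor gene (-1.50, edgeR adjusted p = 0.537, DESeq2 adjusted p = 3.84e-05), and Slc4a1, the band 3 anion exchanger gene (-1.12, edgeR adjusted p = 0.759). Of the 15 genes Tfrc alone had every knockout below every control, against 7.74% of all genes. Ermap had a log2 fold change of -0.58 and, like Slc4a1, was lower in the knockout in each litter. Hbb-bs, an adult beta-globin gene, instead reached 1249 CPM in knockout 3 against 221 to 581 CPM in the other 5 samples. Without knockout 3, 6 of the 15 erythroid genes were lower at an unadjusted edgeR p under 0.05, against 3.51% of all genes. Without knockout 2 the number was 1, against 4.09%. The list's median log2 fold change went from -0.13 to -0.81 without knockout 3 and to 0.10 without knockout 2. The part of these genes in the level of Cat was not tested.

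**Figure D2:**
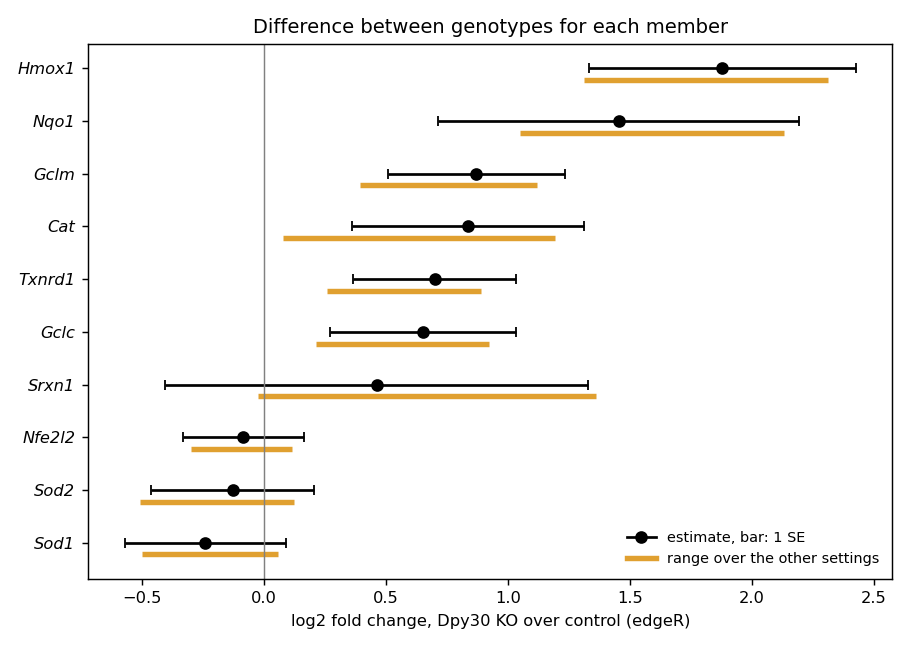
Log2 fold changes of the 10 members (knockout over control, edgeR) are drawn as points with bars of 1 SE, ordered by size, with the range over the alternative settings as a coloured line below each. Hmox1, at 1.88, and Nqo1, at 1.45, lie farthest from 0, and the lines of Srxn1, Nfe2l2, Sod2 and Sod1 cross 0.

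Separation of the genotypes was rarer than the mean differences. Of the 10 members 2, Nqo1 and Txnrd1, had every knockout above every control, against 6.39% of all genes tested, and 0 had every knockout below every control, against 7.74%; in either direction the share of all genes was 14.1%. The number whose groups did not overlap became 4 without control 2 (with Gclm and Srxn1), 5 without knockout 2 (with Hmox1, Gclc and Gclm) and 4 without knockout 3, of which 2, Nfe2l2 and Sod2, were then lower. Over all genes that share was 21%, 28.2% and 24.6% in the same 3 comparisons of 2 samples with 3. Hmox1, Nqo1 and Txnrd1 were higher in the knockout than in the control in each of the 3 litters, against 12.3% of all genes, and no member was lower in all 3, against 15.9%.

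**Figure D3:**
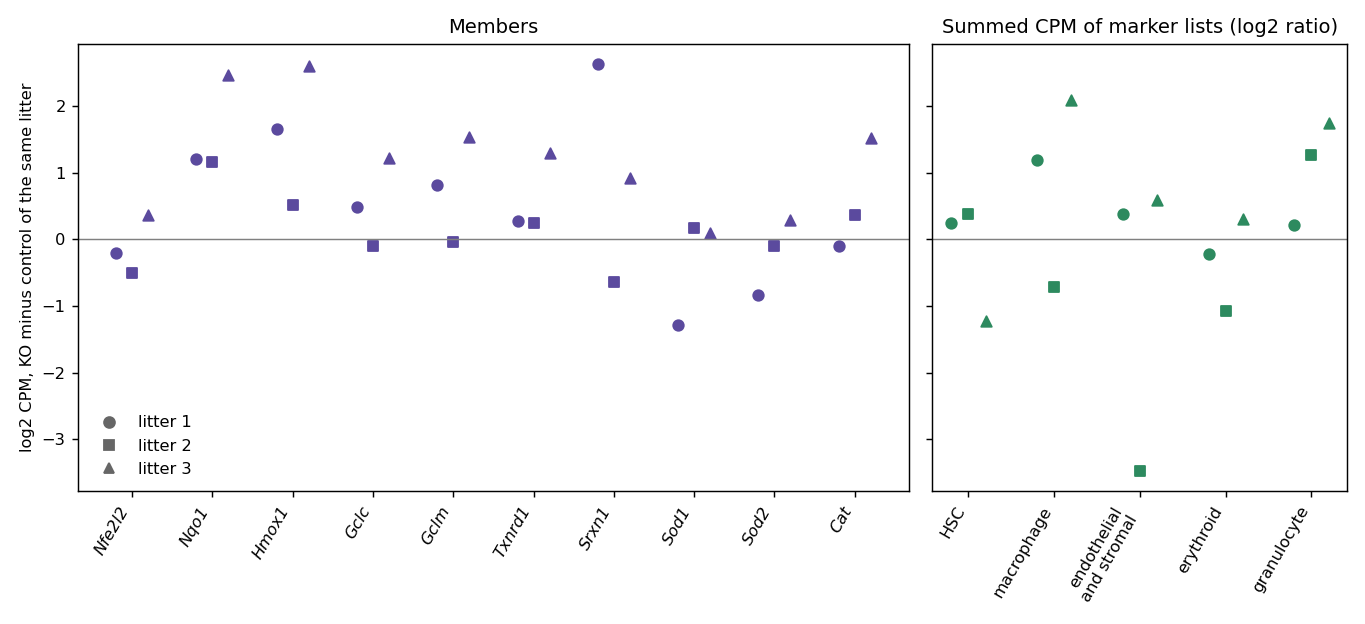
The left panel shows, for each member, the log2 CPM of the knockout minus that of the control of the same litter, 1 symbol per litter. The right panel shows the log2 ratio of the summed CPM of 5 marker lists in the same litters. Litter 3 gives the highest points for 8 members, and the macrophage sum is also highest there, at 2.09, while the HSC sum is lowest there, at -1.23.

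Differences by litter followed the sample picture. In litter 3 the knockout exceeded its control by 2.60 for Hmox1, 2.46 for Nqo1, 1.54 for Gclm, 1.52 for Cat, 1.29 for Txnrd1 and 1.22 for Gclc on the log2 scale. All of these were smaller in litters 1 and 2. Knockout 3 was also the sample with the lowest summed level of the 15 HSC genes, 353 CPM against 817 to 1062 CPM in the other 5, and with the highest summed granulocyte list, 417 CPM against 61.5 to 148 CPM. The part of its cell make-up in the members' levels was not tested. For Hmox1 the difference without knockout 3 was 1.31 (edgeR unadjusted p = 0.0294, adjusted p = 0.624), and for Nqo1 it was 1.59 (edgeR unadjusted p = 0.0742).

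Dividing each gene's counts by the Nfe2l2 counts of the same sample removes library scaling, and this view was chosen after the data were seen. Of the 9 other members 5 then had every knockout above every control, namely Nqo1, Hmox1, Gclc, Gclm and Txnrd1, and 0 had every knockout below, against 8.45% and 4.55% of all genes on the same scale. Per Nfe2l2 count, controls 1 to 3 had 0.384, 0.241 and 0.343 counts of Hmox1, and knockouts 1 to 3 had 1.40, 0.487 and 1.61. Txnrd1 had 0.529, 0.548 and 0.608 in controls and 0.741, 0.926 and 1.15 in knockouts. Knockout 2 had the lowest of the knockout ratios for Hmox1, Gclm and Gclc, knockout 1 for Txnrd1 and knockout 3 for Nqo1. In this ratio knockout 2 gains from its own low Nfe2l2, at 81.6 CPM the lowest of the 6 samples, and no test was made.

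**Figure D4:**
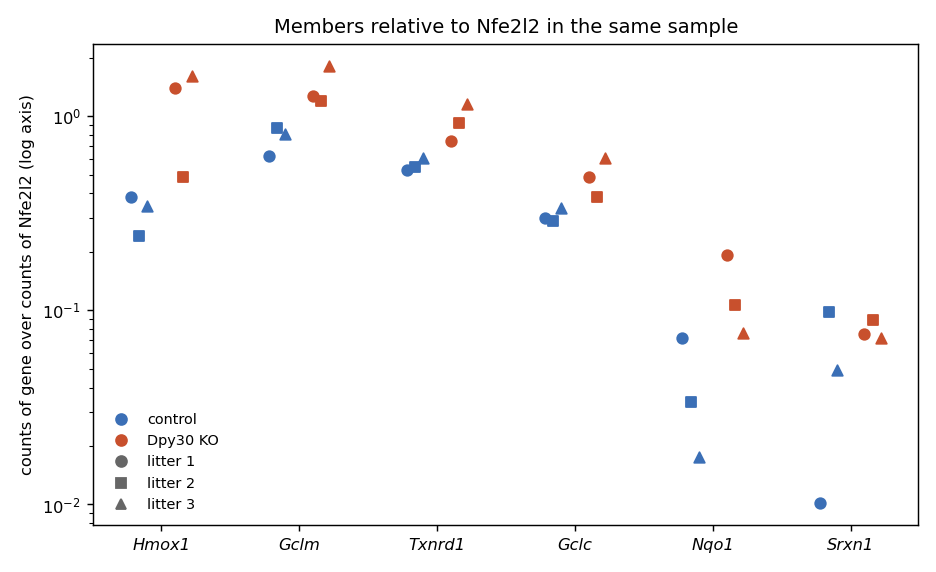
Counts of 6 NRF2 target genes are shown per count of Nfe2l2 in the same sample on a log axis, controls at the left and knockouts at the right of each gene, with a symbol for each litter. The groups do not overlap for Hmox1, Gclm, Txnrd1, Gclc and Nqo1, and they overlap for Srxn1, whose control values run from 0.0102 to 0.0977.

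Levels of different genes were compared per kilobase of exon. None of the members shares exon sequence with another annotated gene on either strand in GENCODE M21. Sod1 was the most abundant member in controls, at 295 ± 30.7 CPM per kilobase (SD, n = 3), followed by Cat at 62.4 ± 9.51, Nfe2l2 at 44.8 ± 2.35 and Hmox1 at 22.7 ± 4.81. Txnrd1 at 15.3 ± 0.616, Gclm at 15.2 ± 2.69 and Sod2 at 14.4 ± 1.54 followed, neighbours in the order whose ranges over the 3 controls overlapped. Gclc, at 9.96 ± 0.312, was separate from its neighbours, and Nqo1 at 2.96 ± 2.04 and Srxn1 at 2.09 ± 1.83 overlapped. In the knockouts Hmox1 stood at 83.5 ± 56.8 CPM per kilobase and Nfe2l2 at 42.2 ± 11.1, so the order of their means was exchanged, but their ranges overlapped. Reads with more than 1 alignment were not counted, so the level of genes with processed copies elsewhere in the genome, as Sod1 may have, can be understated.

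The wider pathway was read from 9 further lists with 103 genes, of which 93 were tested. None of the 93 passed edgeR's adjusted threshold. At an unadjusted p under 0.05, 7 were higher and 2 lower, against 4.26% and 2.24% of all genes, and DESeq2 called 2, Cdkn1a and Sesn2, against 1.08%. Their median log2 fold change was 0.17, against 0.01 over all genes. Without knockout 3 the counts were 3 higher and 6 lower of 94, against 4.11% and 3.51%, and without knockout 2 they were 11 higher and 3 lower of 95, against 5.89% and 4.09%.

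Regulators of NRF2 had a median of 0.03 over 14 genes. Every knockout was above every control for 1 of them, Bach1, against 6.39% of all genes, and below for 1, Maff, against 7.74%. Bach1 was at 17.3, 45.1 and 39.2 CPM in controls 1 to 3 and at 50.1, 52.1 and 45.6 CPM in knockouts 1 to 3 (log2 fold change 0.54, SE 0.387; edgeR adjusted p = 0.866). Keap1, of the same list, had a log2 fold change of -0.72 (SE 0.731; edgeR adjusted p = 0.907). Bach1 and Keap1 were added after their values were seen. Nfe2l1, which encodes the related factor NRF1, had the smallest p of that list, with means of 57.4 ± 17.4 CPM (controls) and 119.5 ± 63.4 CPM (knockouts; SD, n = 3 each; log2 fold change 1.06, SE 0.402; edgeR unadjusted p = 0.0300, adjusted p = 0.733), and each knockout was above the control of its litter. Without knockout 3 its log2 fold change was 0.54 (edgeR unadjusted p = 0.108). Sqstm1, which encodes the KEAP1-binding autophagy receptor p62, was at 22.3, 18.6 and 23.3 CPM in controls 1 to 3 and at 22.6, 39.1 and 44.5 CPM in knockouts 1 to 3 (edgeR unadjusted p = 0.0868, adjusted p = 0.795). Maff, a small MAF partner gene of low level, had 58, 67 and 50 counts in controls and 25, 0 and 0 in knockouts (log2 fold change -2.94, SE 1.93; edgeR unadjusted p = 0.166, adjusted p = 0.849).

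Glutathione genes had a median of 0.08 over 20 genes tested, with 1 higher and 1 lower at an unadjusted p under 0.05, against 4.26% and 2.24% of all genes; without knockout 3 the median was -0.057. Gstm1, a glutathione transferase gene that NRF2 is known to induce, averaged 9.47 ± 1.62 CPM in the controls and 25.1 ± 12.3 CPM in the knockouts (SD, n = 3 each; log2 fold change 1.40, SE 0.517; edgeR unadjusted p = 0.0264, adjusted p = 0.729), and every knockout was above every control. It has close relatives in the same family, so its counts are uncertain. Gss, glutathione synthetase, was at 20.6 ± 7.51 and 38.9 ± 13.5 CPM (edgeR adjusted p = 0.775). Gstt2, another transferase gene, had 56, 37 and 74 counts in controls and 2, 0 and 0 in knockouts (log2 fold change -6.22, SE 1.71; edgeR unadjusted p = 0.00650, adjusted p = 0.642).

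Thioredoxin and peroxiredoxin genes had a median of 0.57 over 13 genes tested, and one of 0.20 without knockout 3. With all samples 0 of the 13 were past an unadjusted p of 0.05 in edgeR, against 6.51% of all genes. Prdx1, a peroxiredoxin and a known NRF2 target, was at 52.2, 53.5 and 52.3 CPM in controls 1 to 3 and at 75.4, 50.1 and 138 CPM in knockouts 1 to 3. That is the same arrangement as for Gclc, with knockout 2 just below the controls and knockout 3 the highest, and without knockout 3 the log2 fold change went from 0.74 to 0.27. Txn2, the mitochondrial thioredoxin gene, was at 28.9 ± 3.87 and 42.9 ± 6.47 CPM (SD, n = 3 each; edgeR adjusted p = 0.797), with every knockout above every control. Msrb1, a methionine sulfoxide reductase gene, ranged from 1.68 to 69.4 CPM among the knockouts.

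Among genes of heme, iron and quinone handling the median was 0.40 over 10 genes tested. Fth1, the ferritin heavy chain that stores the iron set free by heme oxygenase, was at 541, 415 and 565 CPM in controls 1 to 3 and at 644, 634 and 1312 CPM in knockouts 1 to 3 (log2 fold change 0.77, SE 0.316; edgeR unadjusted p = 0.0407, adjusted p = 0.758). All knockouts were above all controls, and without knockout 3 the log2 fold change was 0.35 (edgeR unadjusted p = 0.109). Ftl1, the light chain, was at 15.4 ± 0.742 CPM in controls and 35.7 ± 27.1 CPM in knockouts, where knockout 1 was below the controls; its log2 fold change was 1.21, and 0.42 without knockout 3. Both ferritin genes have processed copies, which makes their counts uncertain.

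The list of further superoxide and peroxide genes had a median of 0.15 over 8 genes. In it Sod3, the extracellular superoxide dismutase, had 17, 41 and 20 counts in controls and 0 in each knockout. Its edgeR unadjusted p was 0.00385 (adjusted p = 0.622). Taking the 3 counts that a count of 0 allows in each knockout library, it was at least 8.76-fold lower there. This bound covers counting error only. Sod3 lies below the list's median of 0.15 at that bound as well, so the median could not change. Ccs, which loads copper into SOD1, ranged from 0.587 to 5.16 CPM in controls and from 2.79 to 11.1 CPM in knockouts.

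NADPH supply genes had a median of 0.11 over 7 genes and FOXO regulators one of -0.11 over 7. In either list 0 genes had an unadjusted edgeR p under 0.05, against 6.51% of all genes. Idh1, cytosolic isocitrate dehydrogenase, was at 15.3 ± 1.96 and 27.4 ± 7.52 CPM (SD, n = 3 each; edgeR adjusted p = 0.775), with every knockout above every control. Foxo3, the FOXO gene most tied to HSC maintenance and added here after its values were seen, had a log2 fold change of 0.23 (SE 0.281; edgeR adjusted p = 0.926). The NADPH oxidase genes, whose products make superoxide in phagocytes, had a median of 0.71 over 7 genes, and of 0.31 without knockout 3. Their member Cybb was at 41.2, 15.6 and 57.9 CPM in knockouts 1 to 3 and at 7.29, 18.0 and 10.9 CPM in controls 1 to 3, so knockout 2 lay within the control range, as for Hmox1.

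Genes that p53 is known to induce overlap with redox defence. The list of sestrins and p53-linked genes had a median of 0.68 over 7 genes. Of these 4 had a positive log2 fold change, against 50.8% of all genes, and 3 a negative one, the lowest at -1.14. At an unadjusted edgeR p under 0.05, 3 were higher and 0 lower, against 4.26% and 2.24%. Sesn2, a sestrin gene that promotes the degradation of KEAP1, was at 0.794, 6.79 and 3.77 CPM in controls 1 to 3 and at 6.79, 32.6 and 57.4 CPM in knockouts 1 to 3 (log2 fold change 3.09, SE 0.966; edgeR adjusted p = 0.686; DESeq2 adjusted p = 0.0300). Knockout 1 and control 2 were level, and the other 2 knockouts were above every control. The DESeq2 adjusted p of Sesn2 was 0.218 without knockout 3 and 0.0579 without knockout 2. Cdkn1a, which encodes p21, a protein that can bind NRF2, was at 1.45 to 3.00 CPM in controls and 33.5 to 164 CPM in knockouts.

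**Figure D5:**
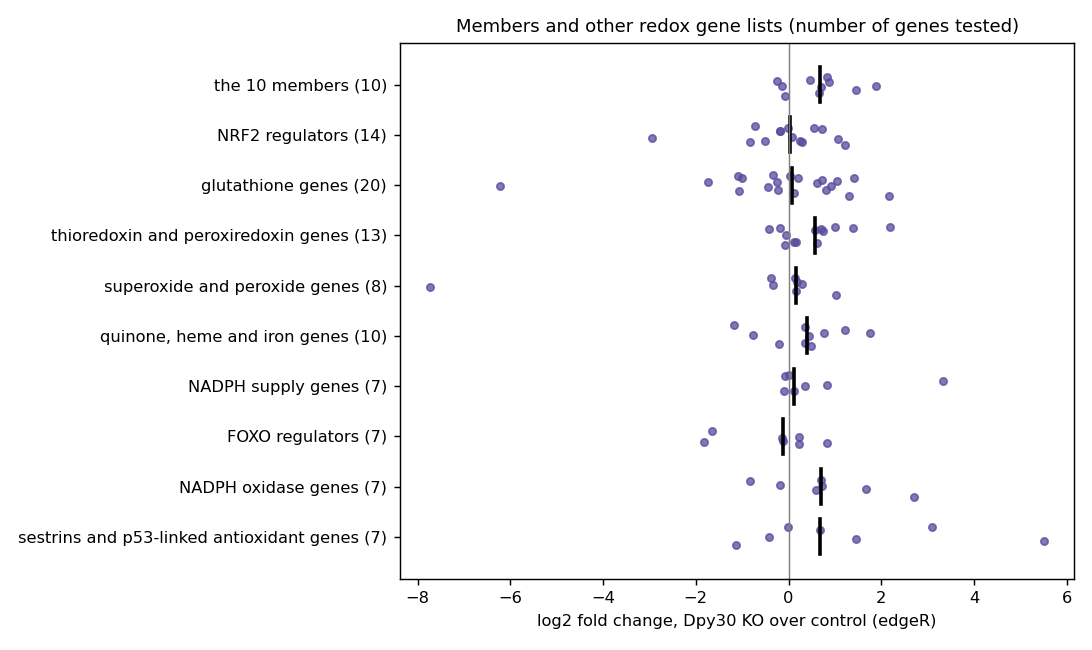
Each point is the log2 fold change (knockout over control, edgeR) of 1 tested gene, grouped by list with the number tested in brackets and a black bar at the list's median. The grey line marks the median of all 13646 genes, at 0.01, and within each list points lie on both sides of 0.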

How the data were processed

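The members and the gene lists were chosen with earlier results of these data known. Each sample's table, as deposited by the authors, lists raw counts by gene symbol. The submitters' processing notes name build mm10, CASAVA 1.8.4, TopHat2, Picard 1.126, HTSeq 0.6.0, DESeq 3.0 and bedtools 2.17.0. The annotation and strand setting are not given in the sources used here. Tallies of reads given to no gene, 41.0% to 51.0% of each file's total, were left out. From the counts, genes were filtered with filterByExpr by genotype, scaled by TMM and tested with edgeR 4.0.16 (R 4.3.3) without a litter term, threshold 0.05 after Benjamini-Hochberg adjustment over 13646 genes. SEs are |log2 fold change| divided by the root of the F statistic. Within-litter log2 CPM uses a prior count of 2. DESeq2 1.42.0, limma-voom (limma 3.58.1), a litter term, other scalings and filters, and omission of each sample were alternatives. P-values rest on the spread between 3 samples per genotype, which may be in part technical. Litters pair the samples by the labels, although correlations of same-litter deviations from the genotype means were -0.022, -0.075 and 0.003. Exon lengths and positions are from GENCODE M21 (GRCm38) and promoters from RefSeq. Older symbols were matched by RefSeq synonyms, and 1 of 228 listed symbols was not matched. The pipeline was tested on simulated data with less variation between samples than these data have (common coefficient of variation 0.817). That test therefore does not show how the fits behave at the spread of these samples. Named were all members, Dpy30, the 3 genes of smallest p of each pathway list and the 3 most abundant of marker lists that moved with a member. A gene that the rule names is not reported here. Values of the lists without knockouts 2 or 3, and without Mrc1, were added after the data were seen. Genes named beyond this rule were chosen after their values were seen.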

Additional observations from a re-analysis of the deposited data

How the results depend on the processing

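With litter as a replicate block, paired by the labels, edgeR again called 0 genes (619 at an unadjusted p under 0.05) and 0 members (1, Hmox1, at an unadjusted p under 0.05, with a log2 fold change of 1.59), and the members' median was 0.59. The count of genes past the threshold was 139 in DESeq2 and 270 in DESeq2 with the replicate block, and 1 both without a filter on low counts and with at least 10 counts in every sample; members past it numbered 1, Hmox1, in both DESeq2 fits (log2 fold change 1.90 and 1.61) and 0 in the other planned fits. The cause was not tested. In edgeR, leaving out 1 sample at a time gave 0 to 0 genes and 0 to 0 members past the threshold. Members whose groups did not overlap then numbered 2 to 5 of 10, against 21% to 30.6% of all genes. The members' medians ranged from 0.23 to 0.90, against -0.058 to 0.037 over all genes then tested. After division by Nfe2l2 counts, 5 of 9 members did not overlap, against 13% of all genes. In DESeq2, Hmox1 stayed past the threshold in 1 of the 6 fits that left out 1 sample. By leaving out 1 sample in edgeR, Nfe2l2 ranged from -0.30 to 0.065, Sod1 from -0.50 to 0.058, Sod2 from -0.51 to 0.12 and Srxn1 from -0.025 to 1.36. Signs changed for Nfe2l2 (0.11 by library size only, 0.065 without knockout 2), Sod2 (0.037 by library size only, 0.12 without knockout 1), Sod1 (0.058 without knockout 1) and Srxn1 (-0.025 without control 1). Hmox1, Nqo1, Gclc, Gclm, Txnrd1 and Cat kept their sign in all 16 alternatives run for each, and Hmox1 had an unadjusted p under 0.05 in all 16. The block changed no member's call at the adjusted threshold in edgeR or DESeq2. With it the edgeR unadjusted p of Gclm went from 0.0426 to 0.0683. Spread between samples exceeded counting error even for the lowest count of a member, the 33 of Srxn1 in control 1.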
